A study of Mus musculus with 12 samples.

Results

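Potassium channel genes were examined in mouse gastrocnemius, a calf muscle, with and without muscle ankyrin-B. The family was taken as every gene whose symbol is Kcn, then letters, then a number, which covers pore-forming and accessory subunits alike. It held 92 of the 24528 genes in the deposited table. Bulk poly-A RNA of 12 male mice aged 4 months was sequenced in paired ends, 1 library per mouse. The 6 WT mice had the genotype Ank2f/f, so they carried floxed Ank2 alleles and no Cre. The 6 KO mice had the genotype Ank2f/f; HSA-Cre+, which are the same floxed alleles with Cre under the human skeletal actin promoter, a driver active in muscle fibres and not in the other cells of the tissue. Ank2 encodes ankyrin-B, an adaptor between membrane proteins and the spectrin cytoskeleton. The question addressed is which potassium channel transcripts differ between the genotypes.

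Potassium channels set the resting potential of the muscle fibre and end its action potential. Voltage-gated channels open on depolarization, and cytoplasmic beta subunits bind their alpha subunits and alter their gating. Inward rectifiers hold the membrane near rest, the KATP type among them closing on ATP, and calcium-activated channels couple potassium efflux to calcium. Fibres are not the only source in whole muscle, since vessels, nerve and Schwann cells carry channels of their own.

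All values are on the log2 scale of the deposited table, in which low values are compressed, so a difference is smaller than the true log2 fold change where reads are few. A level as a percent of the WT mean comes from reads estimated by undoing that compression and scaled for depth. Estimated totals were 12291043 to 18699760 reads per library. Ank2 itself lay between 8.40 and 9.22 in WT, with a median of 8.98, and between 7.54 and 8.03 in KO, with a median of 7.68. The groups did not overlap, and the change was -1.15 (SE 0.14, limma adjusted p = 0.000877). The defining fibre genes Acta1, Ckm, Myh4, Myh1, Mb and Ttn were all measured at high levels, with a mean over the 6 genes of 17.53 ± 0.25 for WT mice and 17.35 ± 0.24 for KO mice (SD, n = 6 per group). The lowest correlation between any pair of libraries over the tested genes was 0.9585.

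Of the 92 members, 83 lay above the lowest value of the table, 5.57, in at least 1 library, 58 in at least 6 libraries and 36 in all 12 libraries. A single library had between 54 and 68 of them above that value. The remaining 9, Kcna3, Kcna4, Kcnh5, Kcnh6, Kcnk15, Kcnk16, Kcnk18, Kcnmb3 and Kcns2, were listed at the lowest value in every library. With 181934349 estimated reads in all, a count of 0 allows up to 3 reads over all libraries. Only genes reaching 10 estimated reads in 6 or more libraries were tested, and 26 members did. Another 57 were above the lowest value but under that limit, so 66 members were not tested. The tested members were 13 of 40 voltage-gated alpha subunits, 4 of 15 inward rectifiers, 4 of 8 calcium- or sodium-activated and Slo channels, 3 of 14 tandem-pore channels, 1 of 3 Kv beta subunits and 1 of 4 KCNE subunits. None of the 4 BK beta subunits and none of the 4 Kv channel interacting proteins passed.

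The family's RNA was concentrated in a few genes. Per kilobase of exon in WT, Kcna7, a muscle alpha subunit of the Shaker type, stood first with 1866 ± 144 scaled reads (SD, n = 6), which was 42.6% ± 1.81 of the level summed over the family. Kcnj11, the pore of the KATP channel, followed with 667 ± 69.2. Kcnj12, a classical inward rectifier, had 418 ± 34.0 and Kcnc4, a fast voltage-gated alpha subunit, 408 ± 74.5. These 4 genes together made up 76.6% of the family in WT. The ranges of Kcna7 and Kcnj11 did not overlap, nor did those of Kcnj11 and Kcnj12 or of Kcnc4 and Kcng4, while Kcnj12 and Kcnc4 could not be ordered beyond their spread. Kcng4, a silent modifier of other voltage-gated subunits, had 171 ± 28.8, followed by Kcnj2 at 158 ± 21.9, Kcnc1 at 121 ± 16.8, Kcnj8 at 102 ± 9.09 and Kcnn1 at 82.2 ± 8.41, each overlapping the next. The last tested member, the small-conductance calcium-activated channel Kcnn3, had 1.49 ± 0.88. Lengths were the union of all annotated exons of a gene, not the transcript expressed in muscle, so order and shares depend on that choice too. In WT, Kcnc1 had 1142 scaled reads over 9458 bases, and Kcnj12 had 1149 over 2750. In KO the shares of the leading genes were near those of WT, with Kcna7 at 41.2% ± 1.31.

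**Figure D1:**
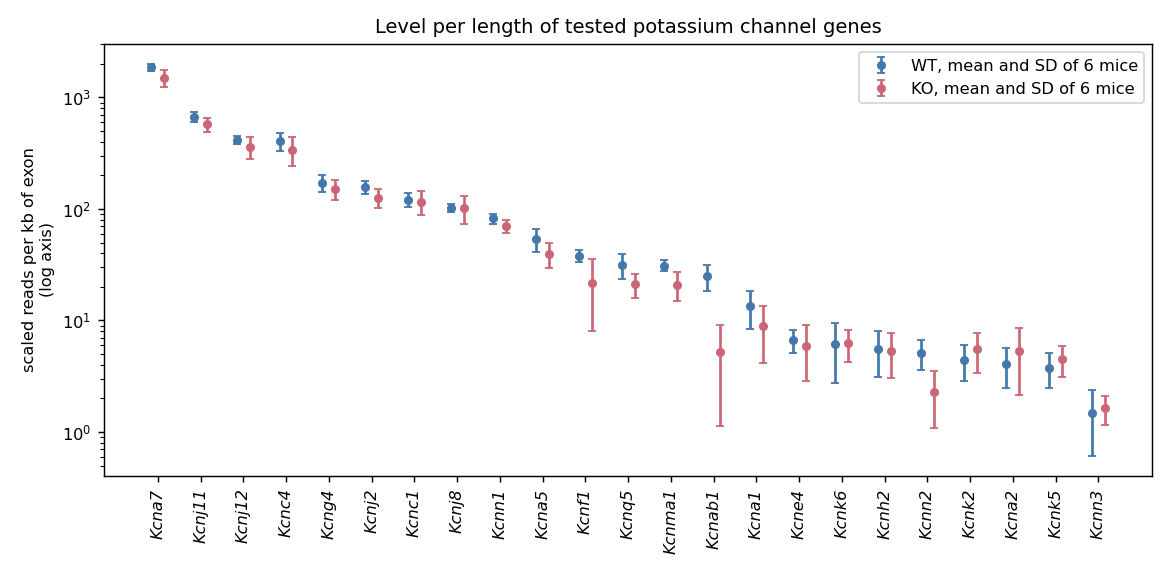
Level of tested members per kilobase of exon, in scaled reads on a log axis, with the mean and SD over 6 WT and 6 KO mice. Kcna7 lies far above the others, followed by Kcnj11, Kcnj12 and Kcnc4.

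KO muscle had less RNA of several potassium channel subunits and more of none that passed the test. Of the 26 tested members, 5 fell in KO and 0 rose (limma, p adjusted by Benjamini-Hochberg over all 12224 tested genes, threshold 0.05). Among all tested genes 3.08% fell and 3.12% rose, 6.19% in either direction. Among those that fell were Kcnab1, a Kv beta subunit, and the calcium-activated channels Kcnma1 and Kcnn2. Estimates lay below 0 for 20 of the 26 members (76.9%), beside 52.4% of all tested genes, and the median change was -0.22 beside -0.01. These are counts over the members that passed a filter on reads, not over the family. Other fits of the same 26 members moved the count below 0. It was 17 (65.4%, beside 51.2% of all tested genes) with the mean of 8 slow-fibre marker genes as a covariate. It was 22 (84.6%, beside 52.1%) without WT 4. With no filter, 46 of the 83 members above the lowest value had estimates below 0 (55.4%), beside 46.6% of all 18054 such genes, and the median change was -0.03 beside 0.01. In bulk tissue, fewer cells of a type and less RNA per cell cannot be told apart.

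**Figure D2:**
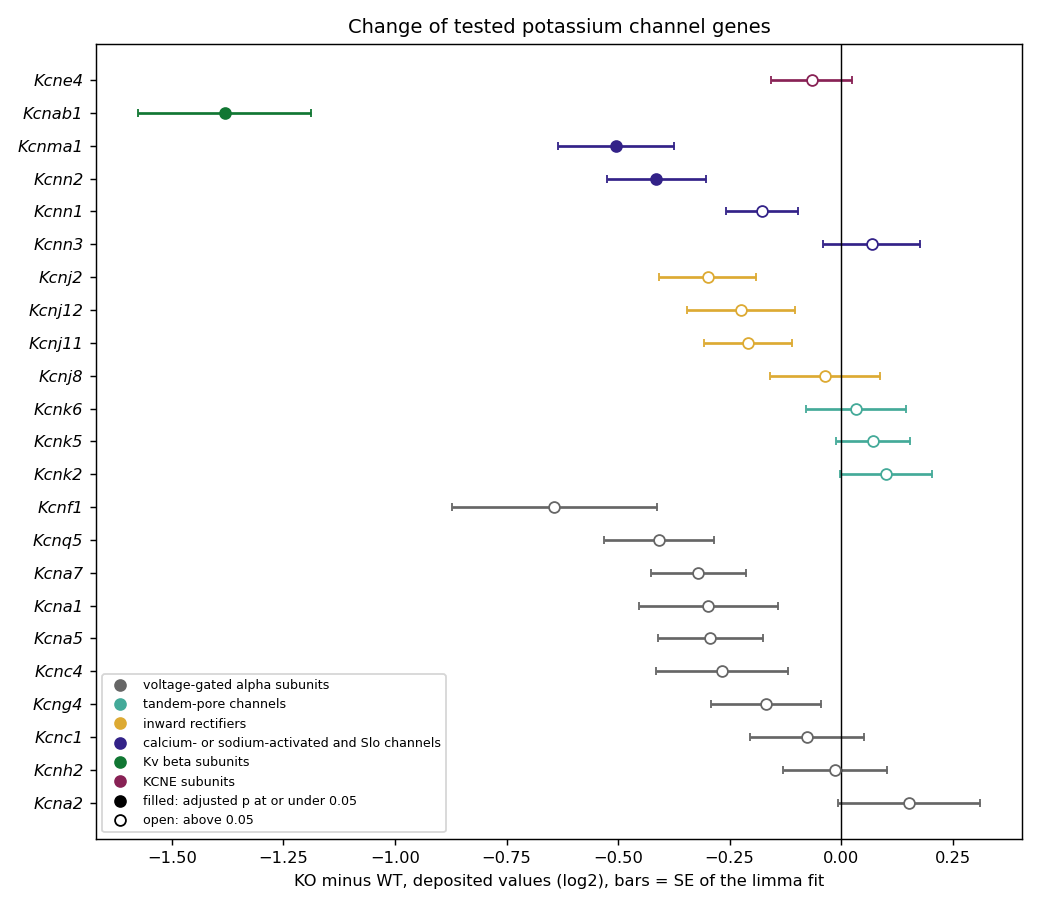
Change in deposited log2 value, KO minus WT, with its standard error for tested members, coloured by class, filled where the adjusted p was at or under 0.05. Kcnab1 lies farthest from 0 at -1.38, and the members shown that passed the test lie below 0.

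Kcnab1 had the lowest level in KO relative to WT of any tested member. It encodes a cytoplasmic beta subunit that binds Shaker-type alpha subunits and can speed their inactivation, and its plus-strand gene spans chromosome 3 from 65109384 to 65378223 (mm10, GENCODE M21). Since it carries the largest difference, the 250 bases before each of its 3 starts in RefSeq (build GRCm38.p6) are shown, with matches to the E-box CANNTG in capitals. The E-box is the letter pattern bound by myogenic and other helix-loop-helix factors and reads as CANNTG on both strands.
Kcnab1 start 1, chr3:64948962-64949211, plus strand: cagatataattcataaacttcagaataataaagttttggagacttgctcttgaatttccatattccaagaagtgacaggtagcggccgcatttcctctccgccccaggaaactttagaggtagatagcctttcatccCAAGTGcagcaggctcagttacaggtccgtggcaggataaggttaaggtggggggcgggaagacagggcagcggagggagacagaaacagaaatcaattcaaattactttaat
Kcnab1 start 2, chr3:65108764-65109013, plus strand: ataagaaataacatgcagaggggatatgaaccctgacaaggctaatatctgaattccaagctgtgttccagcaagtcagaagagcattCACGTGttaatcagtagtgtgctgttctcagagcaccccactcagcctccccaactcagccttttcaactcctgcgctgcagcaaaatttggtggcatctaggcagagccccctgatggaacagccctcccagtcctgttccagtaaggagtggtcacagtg
Kcnab1 start 3, chr3:65187853-65188102, plus strand: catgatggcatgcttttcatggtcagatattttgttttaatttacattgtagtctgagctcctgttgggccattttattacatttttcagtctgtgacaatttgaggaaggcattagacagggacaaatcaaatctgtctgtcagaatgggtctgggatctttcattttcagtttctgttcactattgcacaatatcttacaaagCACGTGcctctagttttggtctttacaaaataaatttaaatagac
Each window held 1 match, CAAGTG before the first start and CACGTG before the other two. No window overlapped an annotated exon. The third lies inside the annotated Kcnab1 gene, and the other two lie upstream of it. A match is common in such windows: 66.2% of 32851 RefSeq windows of this length held at least 1, as did 66.3% of the 92 windows of the 67 members in that table. The deposited values are per gene and do not separate the 3 starts.

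The deposited value of Kcnab1 ranged from 7.81 to 8.56 in WT, with a median of 8.29, and from 6.22 to 7.59 in KO, with a median of 6.77. Every KO mouse lay below every WT mouse, with KO 6 lowest and KO 2 nearest to WT. The change was -1.38 (SE 0.19, limma adjusted p = 0.00369; exact two-sided permutation p = 0.00216, the lowest possible with 924 assignments). Scaled reads in KO were 20.8% ± 16.2 of the WT mean (SD, n = 6), from 4.68% in the lowest mouse to 51.2% in the highest. Between 11.2 and 286 estimated reads per library stood behind these values. The antisense gene A330015K06Rik shares 2.34% of the Kcnab1 exon length, and the libraries do not mark strand, so reads there cannot be assigned. Kcnab1 was the only tested member whose groups did not overlap in this direction, which held for 1.2% of all tested genes. No tested member had every KO mouse above every WT mouse, which held for 1.27% of all tested genes. It passed the test when any 1 of the 12 libraries was left out. The second Kv beta subunit, Kcnab2, had too few reads for the test, at 120% ± 56.0 of the WT mean.

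The 2 calcium-activated members that fell differ in conductance class. Kcnma1 encodes the pore of the large-conductance BK channel, and its gene spans chromosome 14 from 23289431 to 24014491 on the minus strand. Its deposited value ranged from 9.04 to 9.45 in WT (median 9.27) and from 8.26 to 9.22 in KO (median 8.78). KO 1 was lowest, and only KO 2 lay within the WT range. The change was -0.50 (SE 0.13, limma adjusted p = 0.0358; exact permutation p = 0.00866), with KO at 67.3% ± 19.4 of the WT mean. The call held by limma without WT 4, KO 2, KO 4 or KO 5, and was lost on omission of each other library (WT 1, WT 2, WT 3, WT 5 and WT 6, and KO 1, KO 3 and KO 6), with adjusted p up to 0.0874. Kcnma1 is also abundant in smooth muscle, and the mean of 6 smooth muscle markers was likewise lower in KO, 8.00 beside 8.38; its part in the Kcnma1 result was not tested. The antisense gene 4930519K11Rik shares 5.98% of its exon length, with the same limit.

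Kcnn2, a small-conductance calcium-activated channel, had few reads. Its deposited value ranged from 6.48 to 6.97 in WT (median 6.86) and from 6.07 to 6.67 in KO (median 6.45). KO 4 and KO 1 lay within the WT range through WT 4, the lowest WT mouse. The change was -0.41 (SE 0.11, limma adjusted p = 0.0398; exact permutation p = 0.00866), with KO at 45.0% ± 23.6 of the WT mean on 6.53 to 48.2 estimated reads per library. Antisense genes overlap its exons too, A330093E20Rik over 3.80% and AC121957.1 over 4.33% of their length. The call was lost on omission of 9 libraries, which were every WT library but WT 4 and every KO library but KO 2 and KO 4, with limma adjusted p up to 0.0983, and with the mean of 8 slow-fibre marker genes, lower in KO, as a covariate the change was -0.20 (adjusted p = 0.327). Of its relatives, Kcnn1 changed by -0.18 (SE 0.08, adjusted p = 0.175) and Kcnn3, a gene known from denervated muscle, by 0.07 (SE 0.11, adjusted p = 0.719).

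**Figure D3:**
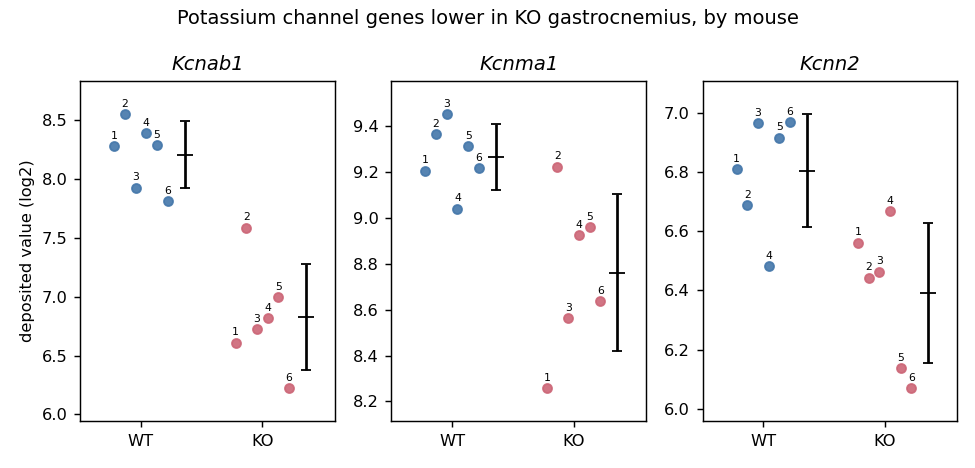
Deposited log2 value of Kcnab1, Kcnma1 and Kcnn2, which fell, 1 numbered point per mouse, with the mean and SD of each group of 6. Kcnab1 is the gene whose WT and KO points do not overlap, and KO 2 is the KO mouse nearest to WT for Kcnab1 and Kcnma1.

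A further 6 members reached an unadjusted p at or under 0.05 but not the adjusted threshold, all with lower KO means. The members past the unadjusted threshold, 11 of 26, stand beside 26% of all tested genes past it in either direction and 14.1% with lower KO values. Kcnq5, a voltage-gated subunit of the M-current type, changed by -0.41 (SE 0.12, limma adjusted p = 0.0576). It passed without WT 4, KO 2 or KO 4 and failed in the other 9 omissions (adjusted p up to 0.134). Kcna7, the most abundant member, changed by -0.32 (SE 0.11, adjusted p = 0.0763): 5 of 6 KO mice lay below every WT mouse, whereas KO 4 at 12.08 lay above the WT median of 12.02. Without KO 4, the adjusted p of Kcna7 was 0.0274. Kcna7 did not pass in the other 11 omissions, with adjusted p up to 0.168. Kcnj2, an inward rectifier whose human counterpart is mutated in Andersen-Tawil syndrome, changed by -0.30 (SE 0.11, adjusted p = 0.101). It also passed without KO 4, at 0.0333, and failed in the other 11 omissions (up to 0.217). Calls over all tested genes likewise went from 757 to 966 without KO 4, 1517 without KO 2 and 882 without WT 4. Kcna5 changed by -0.29 (SE 0.12, adjusted p = 0.133).

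Kcnf1, a silent alpha subunit that modifies other alpha subunits, was uneven among the KO mice. Its values were 6.73, 6.74 and 7.22 in KO 1, KO 3 and KO 4, and 7.98, 7.93 and 7.95 in KO 2, KO 5 and KO 6, beside 7.93 to 8.23 in WT. The group change was -0.64 (SE 0.23, limma adjusted p = 0.111). It passed without KO 2, at 0.0490, and with the slow-fibre mean as a covariate, at 0.0437. Kcnf1 failed in the other 11 omissions (adjusted p up to 0.210) and the other 9 alternatives with all libraries (up to 0.168). The 3 KO mice with low Kcnf1 are also the 3 KO mice with the highest slow-fibre marker means, between 9.51 and 10.74. Kcnf1 was not low in WT 1, WT 3 and WT 6, at 8.23, 8.13 and 7.97, whose slow-fibre means were higher still, at 11.76, 11.47 and 12.80. This is a description of single mice, and a link between Kcnf1 and slow-fibre content was not tested.

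**Figure D4:**
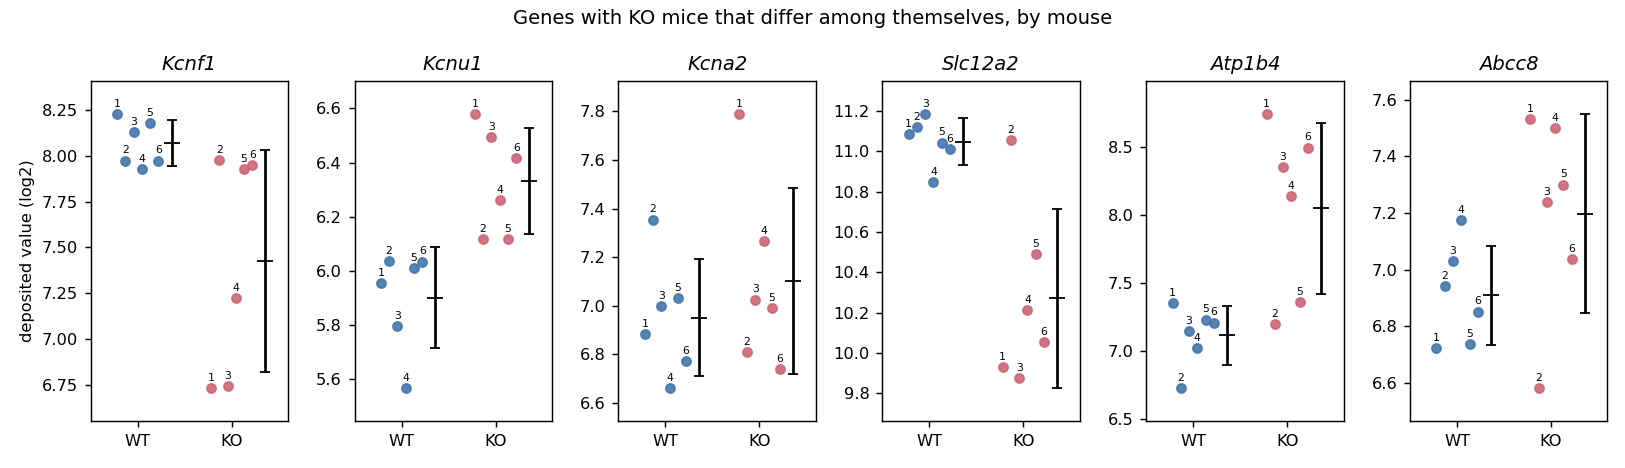
Deposited log2 values of Kcnf1, Kcnu1, Kcna2, Slc12a2, Atp1b4 and Abcc8, 1 numbered point per mouse, with the mean and SD of each group of 6. Kcnf1 is low in KO 1, KO 3 and KO 4 and within or near the WT range in KO 2, KO 5 and KO 6.

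The best known channels of the fibre membrane otherwise did not pass the test. The KATP pore Kcnj11 changed by -0.21 (SE 0.10, limma adjusted p = 0.193), with 86.4% ± 12.6 of the WT mean in KO, and its vascular relative Kcnj8 by -0.04 (SE 0.12, adjusted p = 0.877). The estimate for Kcnj8 turned positive without KO 5 or KO 6 and with the slow-fibre covariate, so no direction is given for it. The inward rectifier Kcnj12 changed by -0.22 (SE 0.12, adjusted p = 0.253). All 4 tested inward rectifiers had estimates below 0, Kcnj8 with these exceptions, and none passed the test. Of the fast voltage-gated subunits, Kcnc4 changed by -0.27 (SE 0.15, adjusted p = 0.269) and Kcnc1 by -0.08 (SE 0.13, adjusted p = 0.732), the latter at 0.00 once a trend with transcript length was removed. Kcng4 changed by -0.17 (SE 0.12, adjusted p = 0.401).

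Estimates above 0 were few, and small on the compressed deposited scale. The 3 tested tandem-pore channels, Kcnk2, Kcnk5 and Kcnk6, which carry background potassium currents, changed by 0.10, 0.07 and 0.03, none past the test. Their KO levels were 125% ± 48.9, 120% ± 37.2 and 102% ± 31.9 of the WT mean (SD, n = 6). Kcna2, a Shaker-type subunit known from myelinated axons, changed by 0.15 (adjusted p = 0.572), and KO 1 was its highest library at 7.79. The KO level of Kcna2 was 131% ± 78.7 of the WT mean. The accessory subunit Kcne4 changed by -0.07 (adjusted p = 0.677), and its relative Kcne3 had too few reads to be tested.

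Among the untested members, Kcnu1 had groups that did not overlap. Every KO mouse lay above every WT mouse for 1.27% of tested genes, and the share among untested genes was not computed. Kcnu1, a Slo-type channel best known from sperm, had 0 to 5.02 estimated reads in WT libraries and 5.98 to 29.0 in KO libraries. Its change, fitted with no filter on low values, was 0.43 (SE 0.10, limma adjusted p = 0.0260); 2.59% of genes rose in that fit. It was singled out after its values were seen. The log2 difference rests on few reads and was not tested under the filter.

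The KO mice did not differ evenly from WT. Of the 26 tested members, KO 6 was the lowest library of all 12 in 10 and KO 1 in 8, whereas KO 2, KO 3 and KO 5 were lowest in none. The mean deposited value over the tested members was 7.99 to 8.28 in KO mice and 8.28 to 8.48 in WT mice. KO 2 and KO 4 were the highest KO mice by that mean, at 8.28 and 8.27, next to WT 4 at 8.28. Summed over the family per kilobase, KO 4 at 4488 scaled reads was within the WT range of 4019 to 4700, and the other KO mice were at 2946 to 3986. That sum mostly reflects a few genes, since Kcna7 alone made up 42.6% of it in WT.

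**Figure D5:**
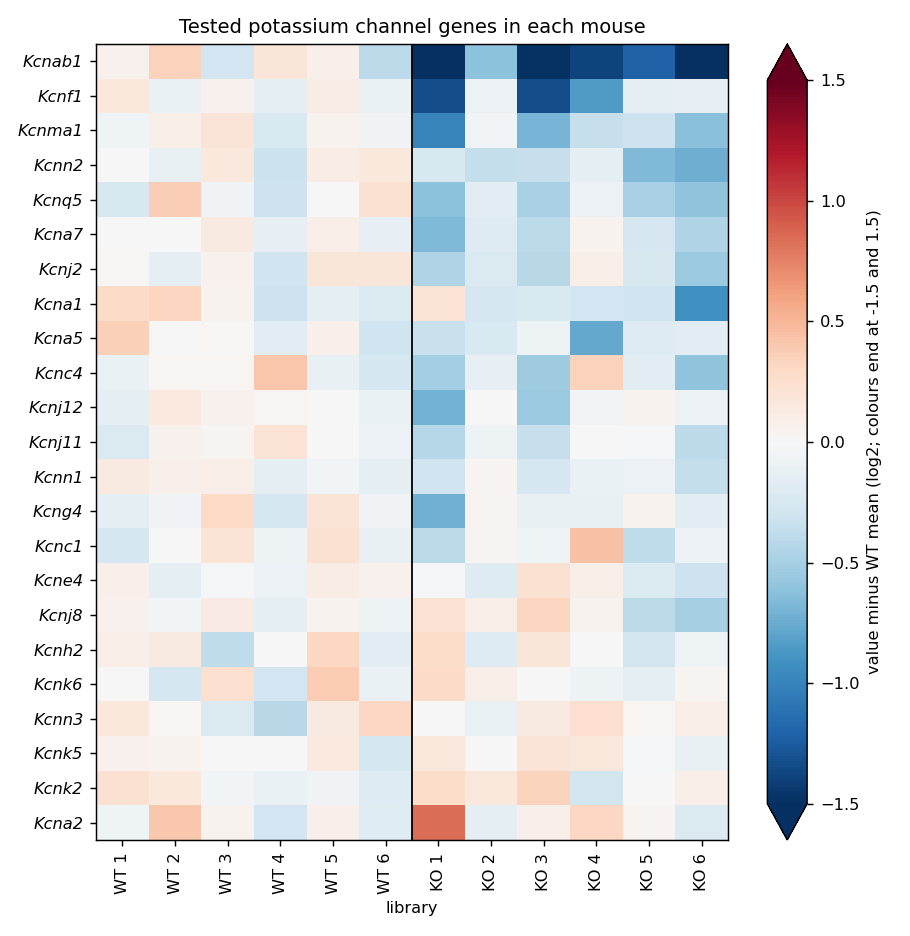
Deposited value of tested members in each of the 12 mice, relative to the WT mean of that member, on a log2 scale. The KO 6 and KO 1 columns hold most of the lowest values, and the Kcnab1 row is low in all 6 KO mice.

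Genes that handle potassium but lie outside the family by name were read from a list of 38, of which 36 were above the lowest value and 24 were tested. In this list 1 rose and 3 fell, with a median change of -0.12. Among all tested genes 3.12% rose and 3.08% fell, with a median change of -0.01. Slc12a2, the sodium-potassium-chloride cotransporter, fell by 0.78 (SE 0.16, limma adjusted p = 0.0175) and kept its call on omission of any 1 library. KO 2 at 11.06 lay within the WT range of 10.85 to 11.19, and the other KO mice lay at 9.87 to 10.49. Hcn2, a pacemaker cation channel, fell by 0.26 (SE 0.08, adjusted p = 0.0486) and did not pass in 9 of 12 omissions of a library, with adjusted p up to 0.112. Every omission except that of WT 4, KO 2 or KO 5 ended the Hcn2 call, as did 4 of the 10 alternatives with all libraries (up to 0.0615).

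Atp1b4, a muscle protein related to the beta subunits of the sodium pump, rose by 0.93 (SE 0.25, limma adjusted p = 0.0498), the WT mean being 7.11 ± 0.22 and the KO mean 8.05 ± 0.63 (SD, n = 6 per group). It did not pass in 10 of 12 omissions, all but those of KO 2 and KO 5, with adjusted p up to 0.117, and in 3 of the 10 alternatives with all libraries (up to 0.0779). The sulfonylurea receptors that partner the KATP pores did not pass: Abcc8 changed by 0.29 (SE 0.14, adjusted p = 0.197) and Abcc9, the more abundant, by -0.21 (SE 0.11, adjusted p = 0.257). Among the most abundant genes of the list, the sarcoplasmic reticulum potassium channel Tmem38a changed by -0.19 (adjusted p = 0.192), the sodium pump subunit Atp1b2 by 0.28 (adjusted p = 0.0745), and the pump regulator Fxyd1 by 0.28 (adjusted p = 0.181).

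Means of the slow-fibre, smooth muscle, endothelial and denervation markers differed between the genotypes, by permutation p-values not adjusted over the lists compared. For scale, 26% of all tested genes had an unadjusted limma p at or under 0.05. The mean of 8 slow-fibre markers was 10.94 ± 1.30 for WT mice and 8.89 ± 1.42 for KO mice (SD, n = 6 per group, exact permutation p = 0.0325), with 0 of the 8 called by limma and summed levels of 6408 to 65996 scaled reads in WT and 1206 to 17181 in KO. The mean of 6 smooth muscle markers was 8.38 ± 0.26 in WT and 8.00 ± 0.05 in KO (exact permutation p = 0.00433), with Myh11 and Mylk falling by 0.54 and 0.38 and summed levels of 1367 to 2579 and 1257 to 1387. The mean of 7 endothelial markers was 9.35 ± 0.12 and 9.12 ± 0.18 (exact permutation p = 0.0325), Flt1 falling by 0.50, with sums of 3992 to 5327 and 3182 to 5069. The mean of 10 genes known to rise on denervation, 8 of them tested, was 7.23 ± 0.08 in WT and 7.65 ± 0.23 in KO (exact permutation p = 0.00866), and Chrna1, Ncam1, Gadd45a and Runx1 rose. Kcnn3 belongs to both that list and the family. Of the lists for fast fibres, pericytes, Schwann cells, macrophages and fibroblasts, none had a member called, and their exact permutation p ran from 0.182 to 0.693. No list had a marker at the lowest value in all libraries. The part of these cell types and states in the fall of Kcnma1, Kcnn2 and Kcnab1 was not tested. In the fit with the slow-fibre mean, Kcnab1 and Kcnma1 kept their calls, with changes of -1.65 and -0.63. Kcnn2 did not, at -0.20 (limma adjusted p = 0.327). Since the slow-fibre mean itself differed between the genotypes, that fit cannot tell fibre type from genotype.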

How the data were processed

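Poly-A RNA of gastrocnemius from 6 WT and 6 KO male mice was sequenced; per the labels' protocols, the mice were littermates sharing cages and the library kit has no step that marks strand. Per the submitters' processing notes, fastp, STAR and featureCounts were used with mm10; the settings, the annotation, the normalization and any use of strand in counting: not given in the sources used here. The authors deposited 1 table of log2 values per gene and library, with 0 columns that could not be matched to a mouse. Each mouse is 1 replicate, and the spread between mice is the error used.

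The values have the shape of a variance-stabilizing transformation, which is inferred from the table and not stated. Undoing it gave estimated reads, with 87.4% to 93.6% of low values (under 10 reads) within 0.1 of a whole number. These reads served for the filter (at least 10 in at least 6 libraries), depth, levels and some alternatives. The deposited values of 12224 genes were fitted with limma 3.58.1 (R 4.3.3), with variance trend and robust moderation, group as the only term, two-sided p-values and Benjamini-Hochberg adjustment over all of them at a threshold of 0.05. Single values were compared by an exact two-sided permutation test over 924 assignments. Tested on simulated data of 12224 genes, the fit recovered 84% of 100 genes changed by 0.5 and 100% of 100 changed by 1, with 11 false calls. The simulated noise was normal and independent between genes, so these figures do not cover differences between mice that many genes share. Estimated reads carry counting error, and PCR copies cannot be told from separate molecules.

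The members, lists and tests were chosen with earlier results of these data known. Named in full were members past the threshold. Named with values were the 10 highest per exon length in WT, those with an unadjusted p at or under 0.05, 12 channels known from muscle fibres, and, outside the family, called genes, Abcc8, Abcc9 and the 4 highest others. Some genes that this rule names are not reported here; they remain in all counts, sums and medians except the check of single mice for outlying values. Kcna2, Kcne4, Kcnu1 and the tandem-pore channels were added after their values were seen, as was the choice of the promoter windows. Positions and exon lengths come from GENCODE M21, which held all 92 members, and promoters from RefSeq GRCm38.p6, which held 67. Other tests, filters, scalings, a replicate block, a slow-fibre covariate and the omission of each library were tried.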

Additional observations from a re-analysis of the deposited data

Results flagged for a closer look

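Among 54 groups of 6 mice checked, 1 per named gene and genotype, 3 held a mouse whose gap to its neighbour exceeded 0.625 of the group's range, a size that chance gives in about 1 of 20 groups. The silent subunit Kcng4 was 8.80 in KO 1, below the other KO mice at 9.36 to 9.58. The accessory subunit Kcne3 was 6.23 in WT 6, above the other WT mice at 5.83 to 5.95, at a level too low for the test. The reticulum channel Tmem38a was 14.51 in WT 4, above the other WT mice at 14.19 to 14.28.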

How the results depend on the processing

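The 5 members called lower became 4 or 5 under the 10 alternatives with all libraries, with Kcnu1 called higher as well under no filter (6 calls), and 1 to 8 when 1 library was left out, with Kcnab1 called in all 22 of these fits. The lowest count, 1, came without WT 2, and the highest, 8, without KO 4. No fit under the filter called a member higher. Over all genes, the 757 calls became 461 with the slow-fibre mean as a covariate and 194 to 1517 with 1 library left out. Fewer samples are part of each such fit. The 4 calls outside the family became 2 with no filter and 1 to 7 with 1 library left out. Of the genes named by the rule, Kcnc1 turned sign with the length trend removed (0.000949). Kcnj8 did so with the slow-fibre covariate (0.15) and without KO 5 (0.0365) or KO 6 (0.0559). The Kcnj8 range was -0.108 to 0.0559 with 1 library left out. Kcnn3 turned sign without WT 4 (range -0.0147 to 0.130). The cause was not tested. Signs of Kcna2, Kcne4, Kcnk2, Kcnk5 and Kcnk6 were not followed over the settings. Members with estimates below 0 went from 20 of 26 to 17 with the slow-fibre covariate. They went to 18 with the length trend removed and to 18 without KO 5. Kcnn2 was not called with the length trend removed (adjusted p = 0.0614), limma-voom on estimated reads (0.0539), log2 of scaled reads plus 1 (0.0501) or the replicate block (0.0656). The labels do not say that the replicate numbers pair the mice, and the values do not settle it. After subtraction of the group means, same-numbered libraries correlated at 0.29, 0.19, -0.08, -0.36, -0.06 and -0.04. The libraries numbered 1 matched each other best in both directions. With the number as a block, 818 genes, 5 members and 4 genes outside the family were called, Kcnq5 (0.0441) in place of Kcnn2, and the Ank2 change stayed at -1.15. Depth limits the 66 members under the filter. Of these, 9 were at the lowest value in every library and entered no fit. Kcnu1 alone of the rest was called with no filter. For the others, the lack of a call at this depth does not show that they did not differ.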
